A study of Homo sapiens with 6 samples.

Results

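The miR-103 and miR-107 family is a small set of vertebrate miRs encoded in introns of the pantothenate kinase genes PANK1, PANK2 and PANK3, whose proteins catalyze the first step of coenzyme A synthesis. Its members were chosen by name, as the 4 mature miRs hsa-miR-103a-3p, hsa-miR-107, hsa-miR-103a-2-5p and hsa-miR-103b of the 2588 miR names in the count table. Of these 4, 3 had at least 1 count and 2, miR-103a-3p and miR-107, passed the filter on low counts that left 360 miRs for testing.

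A miR acts as the guide strand of an Argonaute complex, in which bases 2 to 8 of the miR, the seed, pair with target mRNAs and lower their translation and stability. miR-103 and miR-107 share one seed and are known as regulators of Dicer and of insulin signaling. An intronic miR can be transcribed with its host gene or from a promoter of its own. It is usually cut out of the primary transcript by Drosha and then by Dicer. This leaves a duplex of a 5p and a 3p arm, of which one usually persists.

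Small RNA was sequenced from HEK293T, a human embryonic kidney cell line, after knockdown (KD) of RPL24, a protein of the large ribosomal subunit, with 3 libraries, and from negative control cells (NC), also with 3 libraries. KD cells received siPOOLs, complex pools of siRNAs, against RPL24 and NC cells received non-targeting siPOOLs, each at 50 nM, with harvest at 72 h. For both groups the protocol also mentions transfection with a plasmid for miR-608, 48 h after the siPOOLs and 24 h before harvest. Whether the cells of these libraries received the plasmid is not clear from the protocol. In each group 1 library has no replicate number that matches a label and is called the unnumbered library. Whether the libraries came from separate cultures is not stated, so the p-values measure the spread between these libraries, which may be technical. Libraries of this kind hold no mRNA, so the RPL24 level and those of the PANK mRNAs were not measured here.

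The libraries held from 398721 to 611745 counts. Pairs of NC libraries differed from each other by 9.72 to 17.4 times the chi-square per degree of freedom of pure counting noise, and pairs of KD libraries by 2.18 to 2.50 times. The NC libraries thus stood further apart than the KD libraries, and no pair was a repeat of 1 library. Of 10 miRs that mark other cell types, the liver, blood and squamous markers were at or near 0, with miR-223-3p and miR-205-5p at 0 in all 6 libraries. The neuronal marker miR-124-3p, not tested, was at 0, 1.664 and 0 CPM in KD and 1.749, 20 and 11.37 CPM in NC. Its KD libraries were thus all below the NC libraries, as were those of 12.8% of all tested miRs. Of the muscle markers, miR-206 was at 0 in all 6, and the KD libraries were all below the NC libraries for miR-1-3p (256 ± 13 against 337 ± 24.7 CPM, edgeR adjusted p = 0.0557) and for miR-133a-3p (5.11 ± 1.5 against 14.3 ± 2.78 CPM, not tested), as mean ± SD of 3 libraries each. The endocrine marker miR-375 was at 154 ± 28.5 CPM in KD and 166 ± 26.2 CPM in NC, with overlapping groups (edgeR adjusted p = 0.646). The summed level of the 10 markers was 378.5 to 450.9 CPM, counts scaled to a common library size, in KD and 502.4 to 563.2 CPM in NC, most of it from miR-1-3p and miR-375. Its part in the results on the family was not tested.

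The mature sequences show why the counts of the family have to be read together. They are given 5′ to 3′ as annotated by RefSeq on GRCh38.p14, with the seed in capitals.
miR-103a-3p: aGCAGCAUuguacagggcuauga
miR-107: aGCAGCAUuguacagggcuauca
miR-103a-2-5p: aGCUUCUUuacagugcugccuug
miR-103b: uCAUAGCCcuguacaaugcugcu

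miR-103a-3p and miR-107 are both 23 nt long and share their first 21 bases. Their only difference is G22C, counted from 1 at the 5′ end with the base of miR-103a-3p first. miR-103b is the exact reverse complement of miR-103a-3p over all 23 bases, since its hairpins lie on the opposite strand of the same loci. A read of miR-103a-3p that stops before base 22 fits miR-107 as well, and how the authors counted reads that fit several miRs is not given in the sources used here. The split of counts between miR-103a-3p and miR-107 is therefore uncertain, and their sum was tested beside each of them.

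Of the 2281 miR names with a RefSeq sequence, only miR-103a-3p and miR-107 have the seed GCAGCAU, a share of 0.0877%. The 6 letters AGCAGC, shared with the miR-15/16 family with an offset of 1 base, occur within the first 8 bases of 13 names, or 0.570%. These 13 miRs held 57838 counts over the 6 libraries, of which miR-103a-3p supplied 80.8% and miR-107 supplied 5.87%. The highest of the other 11 was miR-16-5p with 3290 counts.

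These hairpins give rise to the 3p members and are shown here because 2 of them yield the same mature miR. The arms annotated by RefSeq are in capitals.
MIR103A1: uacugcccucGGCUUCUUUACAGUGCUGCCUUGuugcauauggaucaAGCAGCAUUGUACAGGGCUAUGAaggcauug
MIR103A2: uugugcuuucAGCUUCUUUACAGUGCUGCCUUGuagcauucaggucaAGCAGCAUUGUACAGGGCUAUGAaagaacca
MIR107: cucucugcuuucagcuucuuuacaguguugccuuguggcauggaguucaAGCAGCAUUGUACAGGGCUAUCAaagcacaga

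MIR103A1 lies at chr5:168560896-168560973 on the minus strand (GRCh38), within PANK3. MIR103A2 lies at chr20:3917494-3917571 on the plus strand, within PANK2. MIR107 lies at chr10:89592747-89592827 on the minus strand, within PANK1. Each is on the strand of its host and, in GENCODE 29, intronic in every transcript of the host that spans it and exonic in 0. MIR103A2 is in intron 5 of 6 of 8 PANK2 transcripts, MIR107 in intron 5 of 2 of 3 PANK1 transcripts and MIR103A1 in intron 5 of 1 of 2 PANK3 transcripts. The hairpins start at similar distances from the exon before them, 419 nt for MIR103A1, 443 nt for MIR103A2 and 369 nt for MIR107, in introns of 2235, 1620 and 4419 nt. The full hairpins were 80.8% identical between MIR103A1 and MIR103A2, 79.5% between MIR103A1 and MIR107 and 85.2% between MIR103A2 and MIR107. The counts of miR-103a-3p cannot be assigned to PANK2 or PANK3, because both hairpins carry its sequence. The 5p arm of MIR103A1, hsa-miR-103a-1-5p, was not analysed here.

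miR-103a-3p was the most abundant member in all 6 libraries. It had 7735, 8298 and 5674 counts in KD replicate 1, KD replicate 2 and the unnumbered KD library, and 9090, 6107 and 9858 counts in the NC libraries in the same order. It ranked 18th of all miRs in each KD library and 14th to 16th in the NC libraries. After scaling by the trimmed mean of M values (TMM), its level was 14140, 13810 and 14210 CPM in KD and 15900, 15270 and 18690 CPM in NC. Every KD library was below every NC library, and the unnumbered NC library was the highest. Of all tested miRs, 12.8% had KD libraries that were all below the NC libraries, and 27.5% had groups that did not overlap in either direction.

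The mean level of miR-103a-3p was 14055 ± 218 CPM in KD and 16618 ± 1821 CPM in NC (SD, n = 3 each). The fitted level in KD was 15.4% below NC, a log2 fold change of -0.24 with a standard error of 0.0703 and a 95% interval of -0.39 to -0.09. By edgeR's quasi-likelihood test the p was 0.00398, and 0.0570 after Benjamini-Hochberg adjustment over the 360 tested miRs, which missed the threshold of 0.05. miR-103a-3p was thus not differentially expressed (DE) by this test, and ranked 25th by p. Over all tested miRs 18, or 5.00%, were DE, of which 6, or 1.67%, were lower in KD and 12 higher, and 85, or 23.6%, had an unadjusted p under 0.05. With libraries scaled by total counts in place of TMM, 18 DE miRs were lower and 10 higher. Over all tested miRs the median log2 fold change was -0.01.

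miR-107, the single-locus member, had 593, 603 and 424 counts in KD and 639, 400 and 735 counts in NC, in the same order of libraries. Its scaled level was 1084, 1003 and 1062 CPM in KD and 1118, 999.9 and 1393 CPM in NC. The groups overlapped, since NC replicate 2 was below all KD libraries, and the unnumbered NC library was again the highest. The means were 1050 ± 41.9 CPM in KD and 1170 ± 202 CPM in NC (SD, n = 3 each). The log2 fold change of miR-107 was -0.16 with a standard error of 0.108 and an edgeR adjusted p of 0.409. Its 95% interval, -0.40 to 0.07, includes 0 and also the value of miR-103a-3p.

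**Figure D1:**
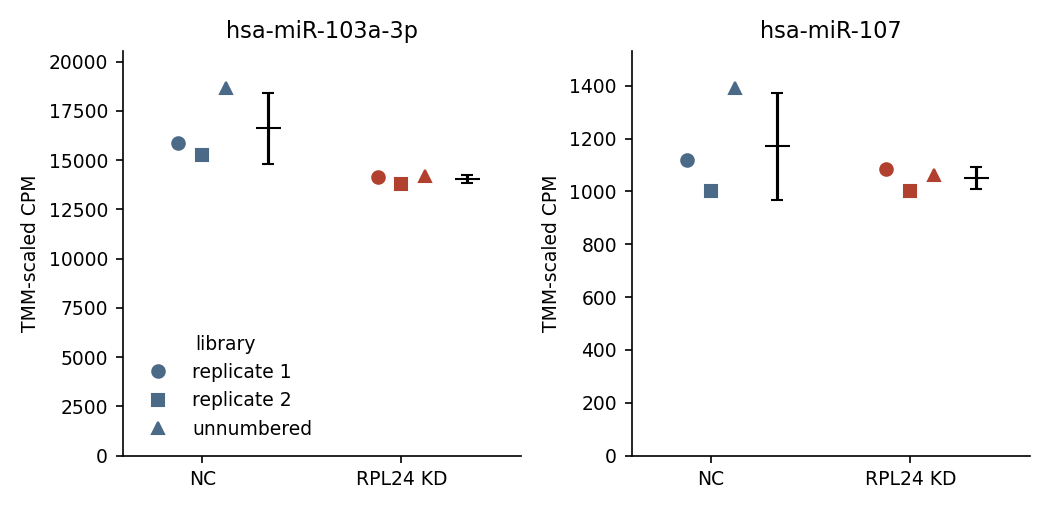
TMM-scaled CPM of miR-103a-3p (left) and miR-107 (right) in the 3 NC and 3 RPL24 KD libraries, with 1 point per library, axes from 0, and the mean ± SD of each group in black. All KD libraries lie below all NC libraries for miR-103a-3p, whereas the groups overlap for miR-107, and the unnumbered NC library is the highest for both.

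Summed, the counts of both miRs gave 15105 ± 256 CPM in KD and 17789 ± 2021 CPM in NC (SD, n = 3 each), again without overlap. The log2 fold change of the sum was -0.24 with a standard error of 0.0712 and a 95% interval of -0.39 to -0.08. Its edgeR adjusted p was 0.0679 over 359 features. The sum thus also missed the threshold. It is independent of how reads were split only if each read was counted for 1 miR. The names miR-365a-3p and miR-365b-3p had the same levels, 130.4 CPM in KD and 129.5 CPM in NC. Whether reads that fit both miR-103a-3p and miR-107 were counted for both was not tested.

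The size of the difference depended on the unnumbered NC library. Without it the log2 fold change of miR-103a-3p was -0.15 (edgeR adjusted p = 0.0716), that of miR-107 was -0.03 and that of the sum -0.14. Of the libraries left out in turn, KD replicate 2 gave the highest adjusted p of miR-103a-3p, 0.265 by edgeR, at a log2 fold change of -0.22. Without NC replicate 1 or NC replicate 2 miR-103a-3p passed the threshold, with log2 fold changes of -0.27 in both cases and edgeR adjusted p of 0.0275 and 0.04. All 18 alternative settings gave a negative log2 fold change for miR-103a-3p, for miR-107 and for the sum. miR-103a-3p was DE in 7 of the 18 and miR-107 in 0, with the smallest adjusted p of miR-107 at 0.195 and its smallest unadjusted p at 0.0345, both without NC replicate 2.

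**Figure D2:**
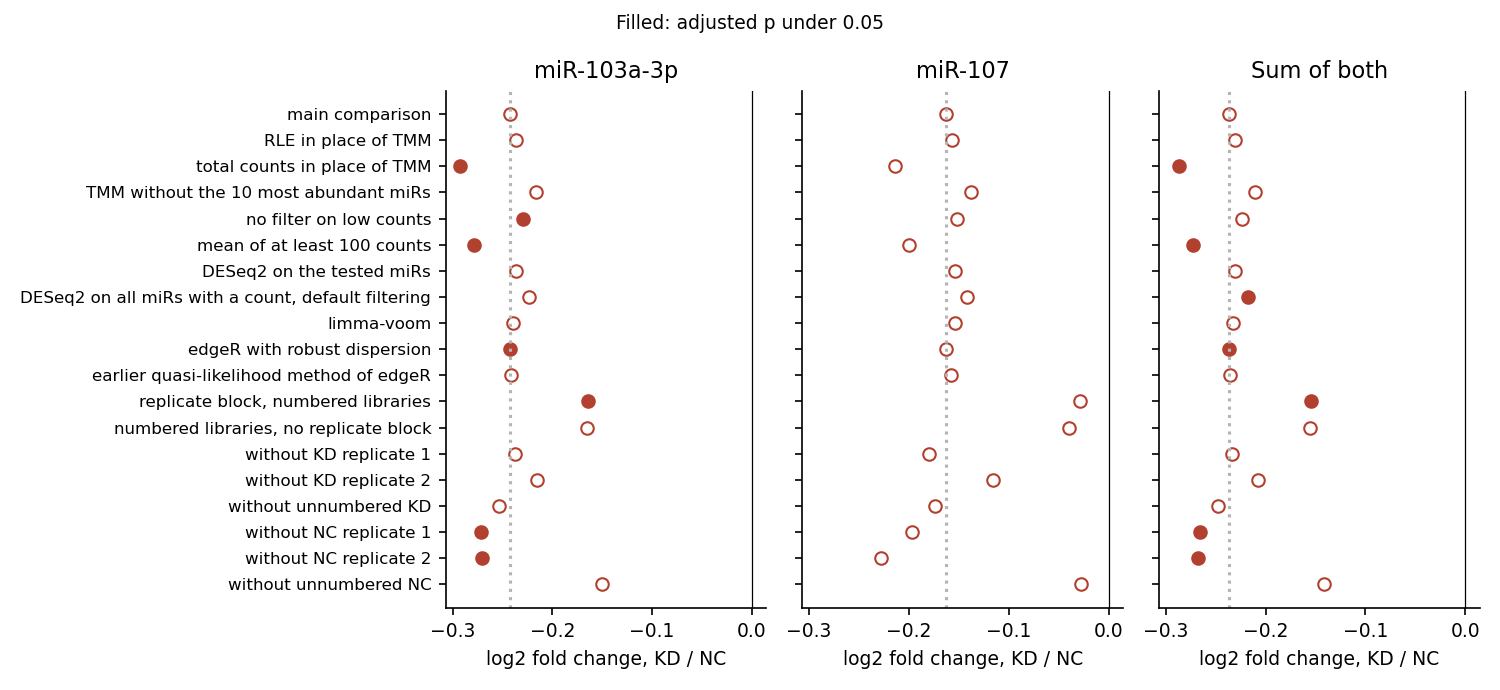
Log2 fold changes (KD over NC) of miR-103a-3p, miR-107 and their sum in the main comparison and under 18 other settings, with filled points at an adjusted p under 0.05 and a dotted line at the main value. All points are below 0, and those without the unnumbered NC library lie nearest to 0.

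The share of miR-107 in the summed counts of both miRs needs no scaling between libraries. It was 7.12%, 6.78% and 6.95% in KD and 6.57%, 6.15% and 6.94% in NC, each with a Wilson 95% interval of 0.484 to 0.639 percentage points to either side, which covers counting error only. The groups overlapped, since the highest NC value exceeded the lowest KD value. The means were 6.95% ± 0.173 in KD and 6.55% ± 0.396 in NC (SD, n = 3 each), a difference of 0.398 percentage points (exact permutation test, two-sided, p = 0.2). With 3 libraries against 3, an exact test cannot go below p = 0.1. In other words, there were 13.4 ± 0.359 counts of miR-103a-3p per count of miR-107 in KD and 14.3 ± 0.930 in NC (SD, n = 3 each). Both miRs are 23 nt long, so a difference in length does not enter the ratio. How reads that fit both miRs were counted does enter it and is not given in the sources used here.

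**Figure D3:**
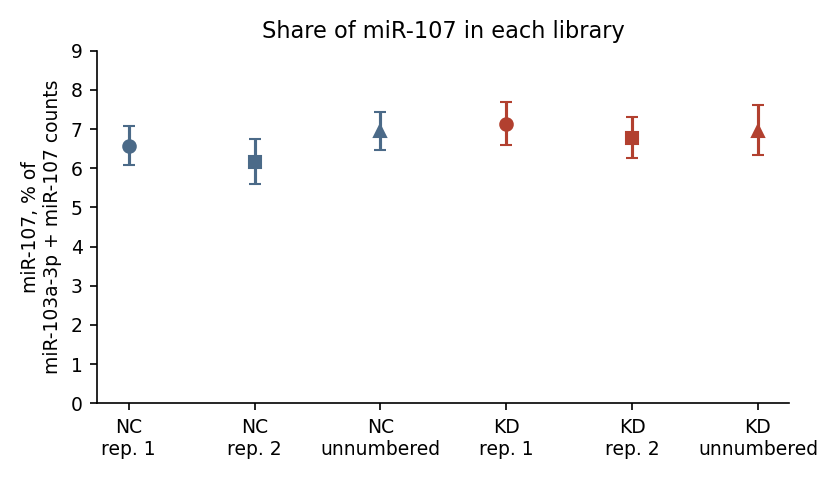
Counts of miR-107 as a percentage of the summed counts of miR-103a-3p and miR-107 in each library, with Wilson 95% intervals for counting error and an axis from 0. The 6 shares lie between 6.15% and 7.12%, and the intervals of NC and KD libraries overlap.

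The passenger arm miR-103a-2-5p, which comes from the PANK2 hairpin, was close to absent. It had 1 count in KD replicate 1, 1 in the unnumbered KD library and 0 in the other 4 libraries. These 2 counts are 0.00428% of the 46764 counts of miR-103a-2-5p and miR-103a-3p together (exact binomial 95% interval 0.000518% to 0.0154%, counting error only). Since miR-103a-3p also comes from the PANK3 hairpin, the arm share of the PANK2 hairpin alone cannot be had. Per 10000 counts of miR-103a-3p, the mean was 1.02 in KD and 0 in NC, and 0.646 in KD without the unnumbered KD library. The exact permutation test (two-sided, p = 0.4) cannot go below that p with a count in only 2 of 6 libraries, so whether the groups differ could not be tested at this depth.

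miR-103b, the antisense miR of the PANK2 and PANK3 loci, had 0 counts in all 6 libraries. A count of 0 allows up to 3 counts, which is 4.99 to 7.52 CPM in a single library and 0.982 CPM over the 3054253 counts of all 6. The order of levels in both groups was therefore miR-103a-3p, then miR-107, then the other two members, which cannot be ordered since both lie at or under 3 counts.

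**Figure D4:**
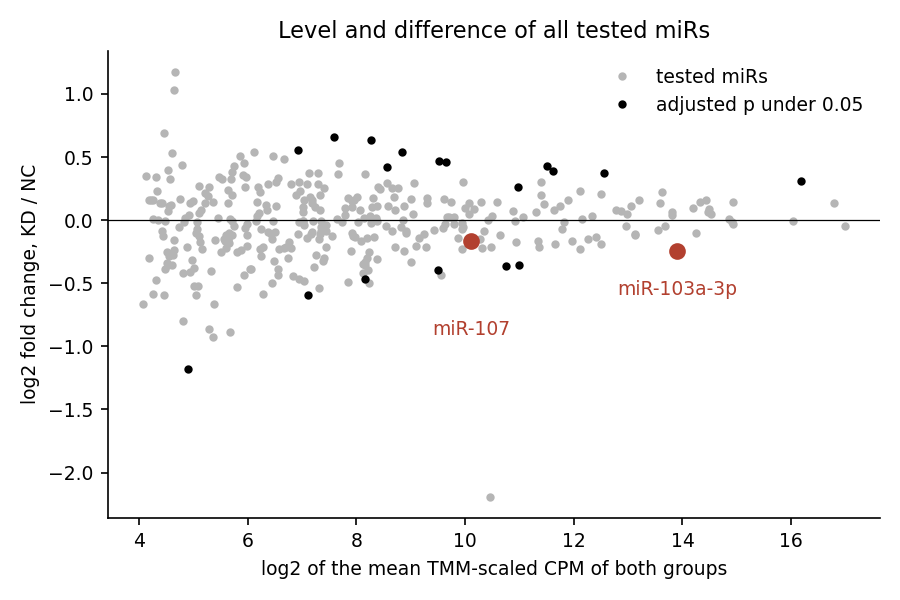
Log2 fold change (KD over NC) against the log2 of the mean TMM-scaled CPM for the 360 tested miRs, with the 18 DE miRs in black and miR-103a-3p and miR-107 in red. Both members lie below 0, with log2 fold changes of -0.24 and -0.16, and neither is DE.

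The miR-15/16 family carries AGCAGC, the first 6 bases of miR-103a-3p and miR-107, shifted by 1 base into its seed, as the seeds in capitals show for its most abundant members.
miR-16-5p: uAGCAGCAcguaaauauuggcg
miR-503-5p: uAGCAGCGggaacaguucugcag
miR-15b-5p: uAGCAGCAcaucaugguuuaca

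Of 8 miRs of this related group, known for targeting cyclins and other cell cycle genes, 7 had counts, 6 were tested and 0 were DE by edgeR, with adjusted p from 0.309 to 0.757. At an unadjusted p under 0.05, which 23.6% of all tested miRs had, the count was also 0. The log2 fold changes were positive in 3 and negative in 3, with a median of 0.02. miR-16-5p was at 1128 ± 32.3 CPM in KD and 1025 ± 132 CPM in NC (SD, n = 3 each), a log2 fold change of 0.14. miR-503-5p was at 832.0, 826.9 and 839.2 CPM in KD and 694.4, 719.9 and 813.3 CPM in NC. Its groups did not overlap, with KD higher, and its log2 fold change was 0.16 (edgeR adjusted p = 0.309). miR-15a-5p, at -0.22, and miR-15b-5p, at -0.21, lay close to the value of miR-103a-3p. Their intervals were -0.71 to 0.27 and -0.51 to 0.09.

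Of the 8 opposite arms of these hairpins all had counts, 4 were tested and 1 was DE, against 5.00% of all tested miRs. miR-424-3p rose in KD, from 582.5, 694.9 and 574.4 CPM in NC to 854.0, 871.9 and 811.7 CPM, a log2 fold change of 0.47 (edgeR adjusted p = 0.0132). Its partner miR-424-5p was not DE, with a log2 fold change of -0.09. The difference between these arms was not tested.

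Like the PANK genes, the hosts of miR-33a, miR-33b and miR-378a are metabolic genes, SREBF2, SREBF1 and PPARGC1B, which act in sterol and lipid synthesis and in mitochondrial biogenesis. Of the 6 arms of these hairpins, 5 had counts, 2 were tested and 0 were DE by edgeR, with 1 at an unadjusted p under 0.05, against 23.6% of all tested miRs. miR-378a-3p was at 32769 ± 467 CPM in KD and 29652 ± 1862 CPM in NC (SD, n = 3 each), a log2 fold change of 0.14 (edgeR adjusted p = 0.131) with groups that did not overlap. miR-378a-5p had a log2 fold change of 0.08 with overlapping groups. Both log2 fold changes were thus positive and those of miR-103a-3p and miR-107 negative, a difference between miRs that was not tested.

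**Figure D5:**
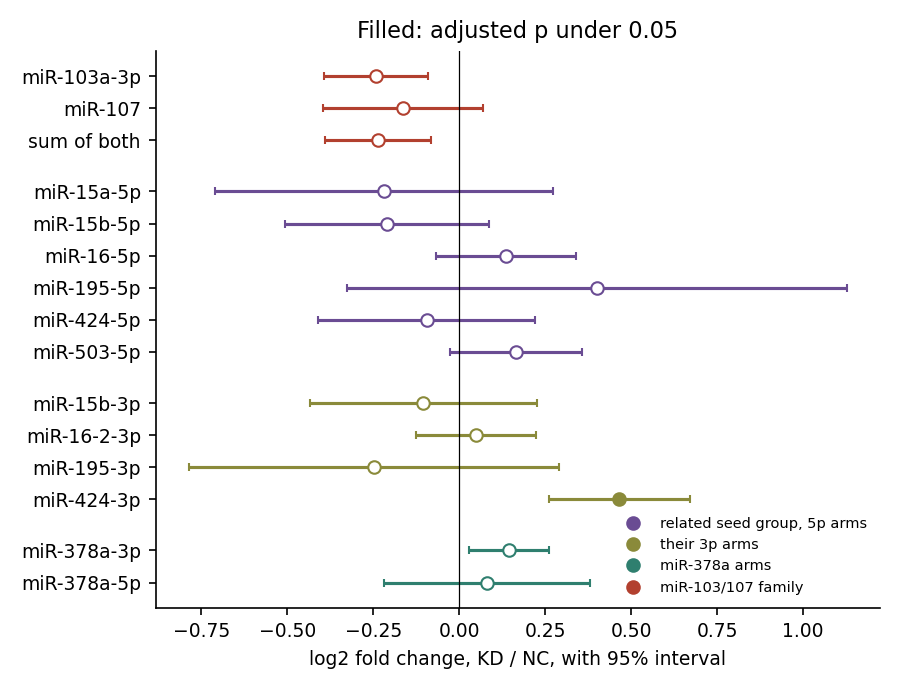
Log2 fold changes (KD over NC) with 95% intervals for the tested members of the miR-103 and miR-107 family and their sum, of the related seed group, of the opposite arms of that group and of miR-378a, with filled points at an adjusted p under 0.05. The related seed group lies on both sides of 0, and miR-424-3p at 0.47 is the only filled point.

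Across the 6 libraries, the miRs whose log2 CPM was most like that of miR-103a-3p were miR-140-3p, with a Pearson r of 0.982, miR-191-5p (0.969), miR-27b-3p (0.955), miR-652-3p (0.952) and miR-542-3p (0.929), out of 165 other miRs that averaged 100 or more counts per library. miR-107 had an r of 0.887. These are descriptions over 6 libraries that share the group difference and a high unnumbered NC library. Without that library, over 5 libraries, r was 0.979 for miR-140-3p, between 0.782 and 0.853 for the other 4 and 0.374 for miR-107. None of the 5 was DE, with log2 fold changes from -0.34 for miR-652-3p to -0.11 for miR-191-5p and edgeR adjusted p from 0.123 to 0.331. These libraries measure shares of small RNA over many cells, so they give no level per cell. A lower level per cell, fewer cells with a miR and higher levels of other small RNAs cannot be told apart.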

How the data were processed

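Small RNA of 3 RPL24 KD and 3 NC libraries of HEK293T was analysed. The authors used Flexbar for trimming and miRExpress for alignment to miRBase, and deposited raw read counts per mature miR and library, without normalization. Their handling of reads that fit several miRs is not given in the sources used here.

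Groups followed the labels. Counts were compared with edgeR 4.0.16 in R 4.3.3 (quasi-likelihood test, TMM, filterByExpr with a minimum count of 10, no replicate block, Benjamini-Hochberg adjustment over all tested miRs, threshold 0.05). Standard errors are those implied by the F statistic. For the sum, the rows of miR-103a-3p and miR-107 were replaced by their sum with library scaling kept. Shares were compared with exact permutation tests. DESeq2 1.42.0 and limma 3.58.1 were alternatives, as were other scalings, filters, the replicate block and leaving out each library. The scripts were tested on simulated data. Library totals limit precision: 3 counts correspond to 4.99 to 7.52 CPM.

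The miRs named are the members, 8 miRs of the related seed group, the 8 opposite arms, 6 arms of miRs with metabolic hosts, 10 markers of other cell types and the 5 miRs most like miR-103a-3p among those that averaged 100 or more counts per library (log2 CPM, prior count 2). Members and lists were chosen with earlier results of these data known. The earlier quasi-likelihood method of edgeR was added after seeing the data. Sequences came from RefSeq (GRCh38.p14), which held 2281 of the 2588 names, and introns from GENCODE 29 on GRCh38, where the 5 hairpins of the family have the same coordinates.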

Additional observations from a re-analysis of the deposited data

How the results depend on the processing

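No log2 fold change of miR-103a-3p, of miR-107 or of their sum changed sign. The balance of DE miRs, 6 lower and 12 higher in the main comparison, turned to 18 and 10 with total counts, 16 and 15 without a filter, 17 and 10 with a mean of at least 100 counts, 19 and 15 on the numbered libraries without a block and 15 and 14 without the unnumbered NC library. Scaling by total counts gave 28 DE miRs, 18 lower in KD, with log2 fold changes of -0.29 for miR-103a-3p and -0.29 for the sum, both past the threshold. Without a filter on low counts there were 31 DE miRs, 16 lower, and miR-103a-3p passed at -0.23. With a mean of at least 100 counts 17 were lower, and miR-103a-3p (-0.28) and the sum (-0.27) passed. With robust dispersion 34 were DE, 16 lower, and miR-103a-3p (-0.24) and the sum (-0.24) passed. DESeq2 with its default filtering called the sum (-0.22), and edgeR's earlier quasi-likelihood method, added after seeing the data, called 10 lower. On the 4 numbered libraries, the replicate block gave 52 DE miRs, 24 lower and 28 higher, and miR-103a-3p (-0.16) and the sum (-0.15) passed; without the block there were 34, of which 19 were lower, and neither passed. The deviations of same-numbered libraries had r = -0.144 for number 1 and 0.104 for number 2 over 360 miRs. Over the 166 more abundant miRs, r was -0.306 for number 1 and -0.0348 for number 2. Each r rests on 1 pair of libraries, and the NC libraries stood further apart than the KD libraries. These values therefore do not decide whether same-numbered libraries share more than a number.

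Leaving out 1 library at a time gave 4 to 29 DE miRs, 0 to 15 lower and 4 to 14 higher; 0 were lower without KD replicate 1 or KD replicate 2, and 29 were DE without the unnumbered NC library. The log2 fold change ranged from -0.27 to -0.15 for miR-103a-3p, from -0.23 to -0.03 for miR-107 and from -0.27 to -0.14 for the sum, and the difference in the share of miR-107 from 0.196 to 0.592 percentage points. No fold change is given for miR-103a-2-5p and miR-103b, which had at most 2 counts. The causes of these shifts were not tested.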
